A study of Mus musculus with 13 samples.

Results

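The muscle nicotinic acetylcholine receptor and the proteins that build the neuromuscular junction around it were examined as 10 genes on the arrays: the receptor subunits Chrna1, Chrnb1, Chrnd, Chrne and Chrng, the kinase Musk with its activator Dok7, the scaffold Rapsn, acetylcholinesterase (Ache) and the adhesion molecule Ncam1. Every non-control probe that the array design names for one of these genes was taken, whatever its values, which gave 10 of the 34797 gene names and 16 of the 55681 probes. Of these, 15 probes of 9 genes passed the filter on dim signals (well above background in the mouse channel on at least 6 of the 13 arrays), as did 22740 probes of the whole array. A probe printed as several spots counted as well above background on an array where any of its spots was, which is an easier filter for such probes. The single Chrng probe did not pass and is described by its signals. The genes, and the gene lists below, were chosen with earlier results of these data known. Their counts beside those of all features are thus a description and not a test.

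Gastrocnemius muscle of 7 UCP1-TG mice and of 6 WT littermates was hybridised, 1 array per mouse. UCP1-TG mice carry a transgene for UCP1, the uncoupling protein of brown fat mitochondria, overexpressed in skeletal muscle according to the title of the study. The promoter that drives it is not given in the sources used here. Both groups were male C57BL/6J mice, given as 12 weeks old, and both ate a purified low fat diet for 12 weeks. Each mouse's RNA carried Cy5 and was measured against the same Cy3 reference pool, so a level below is a log2 ratio to that pool. A difference is UCP1-TG minus WT on the same log2 scale with the standard error (SE) of the limma fit, and a probe was called where the p-value adjusted over all 22740 probes was below 0.05.

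Between 37.1% and 43.2% of probes per array were well above background, with a median Cy5 spot signal of 40.4 to 50.8 scanner units. The arrays lay on 4 slides, each of which held both groups. Ucp1 averaged 0.32 ± 0.38 in UCP1-TG muscle (SD, n = 7) and -2.91 ± 1.71 in WT muscle (SD, n = 6). The array labelled WT 4 went against its label in this gene, with a Ucp1 log2 ratio of 0.45. In Ankrd1 and Gadd45a, where the groups did not overlap, it lay with the other WT arrays, the highest of which read -2.21 and -1.90. A gene without overlap puts every array with its own label, so such genes do not test the label. Without it the Ucp1 difference was 3.91, against 3.23 with it, and the values that changed a call of a junction gene without it are given beside that gene. Among genes that mark the muscle fibre, all 8 were well above background on every array. In UCP1-TG muscle 1 was higher (against 16.7% of all genes), 3 lower (against 16.0%) and 4 not called, with a median difference of -0.07. Myh1 (the fast IIx myosin) was the higher one, at 0.62 ± 0.10 (SE), and Acta1 (skeletal actin) at -0.93 ± 0.11 (SE), Myh4 (the fast IIb myosin) at -0.74 ± 0.10 (SE) and Tnnt3 (fast troponin T) at -0.49 ± 0.09 (SE) were the lower ones. Myh1 and Tnnt3 are named with their values known.

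At the junction a motor axon releases acetylcholine onto a pentameric channel in the fibre membrane. The channel is built from alpha, beta and delta subunits with gamma in fetal muscle or epsilon in adult muscle. Agrin from the nerve acts through LRP4 and the kinase MuSK, which needs the adaptor DOK7 inside the fibre, and rapsyn then holds the receptors in dense clusters, while acetylcholinesterase ends the signal in the cleft. When a muscle loses its nerve, nuclei along the whole fibre take up transcription of receptor genes, gamma among them, together with Musk, Ncam1 and the myogenic factor Myog, whereas the epsilon gene is tied more closely to the nuclei under the endplate. E-boxes, the sites of myogenic factors, drive receptor genes in cultured and denervated muscle, and an N-box in the mouse epsilon promoter binds the ETS factor GABP.

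The sequence of the gamma probe is shown because the reading of the fetal subunit turns on this 1 probe. It is the array's own probe, written without capitals. The files place it at chr1:89106072-89106353 (mm9), a span of 282 bases for 60 probe bases, so its location takes in bases the probe lacks. The epsilon subunit also has 1 probe, at chr11:70429215-70429274.
Chrng probe: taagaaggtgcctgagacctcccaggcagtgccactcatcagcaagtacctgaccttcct

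Promoters of 4 subunits are shown because alpha, beta, epsilon and gamma gave different readings on the arrays. Each is the 250 bases before the annotated start from RefSeq on GRCm38.p6, read on the gene's own strand. Capitals mark the E-box CANNTG and, in Chrne, also the N-box CCGGAA. RefSeq windows were matched for 7 of the 10 genes, and there was no entry for Chrnd, Rapsn and Ncam1.
Chrna1, chr2:73580339-73580588, minus strand: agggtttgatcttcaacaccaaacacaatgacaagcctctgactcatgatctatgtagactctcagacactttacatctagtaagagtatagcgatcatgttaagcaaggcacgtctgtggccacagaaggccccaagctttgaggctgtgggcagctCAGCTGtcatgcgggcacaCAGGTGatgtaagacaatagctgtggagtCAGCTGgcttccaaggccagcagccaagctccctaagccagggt
Chrnb1, chr11:69795938-69796187, minus strand: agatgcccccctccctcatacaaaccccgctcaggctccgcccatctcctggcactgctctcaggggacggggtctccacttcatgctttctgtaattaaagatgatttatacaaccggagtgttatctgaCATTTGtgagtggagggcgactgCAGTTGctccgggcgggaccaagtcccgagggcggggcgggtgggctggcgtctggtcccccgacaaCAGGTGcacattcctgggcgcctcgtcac
Chrne, chr11:70619195-70619444, minus strand: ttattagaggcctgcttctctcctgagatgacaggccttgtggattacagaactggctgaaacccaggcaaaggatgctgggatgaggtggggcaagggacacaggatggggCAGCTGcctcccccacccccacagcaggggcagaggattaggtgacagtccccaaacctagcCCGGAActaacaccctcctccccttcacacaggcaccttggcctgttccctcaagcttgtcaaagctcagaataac
Chrng, chr1:87205561-87205810, plus strand: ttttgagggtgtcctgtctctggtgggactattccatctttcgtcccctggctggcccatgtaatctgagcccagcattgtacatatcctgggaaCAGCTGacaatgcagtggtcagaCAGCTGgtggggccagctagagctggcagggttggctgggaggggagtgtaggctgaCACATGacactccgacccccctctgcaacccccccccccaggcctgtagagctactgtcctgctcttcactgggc

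The Chrna1, Chrnb1 and Chrng windows held 3 E-boxes each, and the Chrne window held 1. The E-box core CAGCTG occurred at 2 places in Chrna1, 2 in Chrng and 1 in Chrne, and at none in Chrnb1. The N-box was found in the Chrne window, where it begins 76 bases before the start, and in none of the other matched windows. Both strands were searched, and CAGCTG sites are counted among the CANNTG sites too. Of 32851 RefSeq promoter windows of this length, 66.2% held a CANNTG, 13% a CAGCTG and 12.0% a CCGGAA. These matches describe the letters in a window and not the binding of a factor.

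Of the 15 junction probes, 9 were called. Among all kept probes 31.8% were called, with 15.9% higher and 15.8% lower. Of the junction probes 7 were higher in UCP1-TG muscle, from Chrna1, Chrnb1, Chrnd, Musk and Ncam1, and 2 were lower, both from Dok7. Among the higher ones, probe 3 of Ncam1 was well above background on 2 of 6 WT arrays and probe 2 of Musk on 4 of 6, so both passed the filter through the UCP1-TG arrays. In 5 of the 15 probes the groups did not overlap, against 14.2% of all kept probes. The median difference of the 15 probes was 0.19, beside a median of -0.0022 over all kept probes. Regardless of sign, the median over all kept probes was 0.134, and 10% of them differed by more than 0.452, as did both Chrna1 probes, the Chrnb1 and Chrnd probes and probe 2 of Dok7. Read at the brightest kept probe of each gene, 5 of 9 junction genes were called, 4 higher and 1 lower, against 32.7% of all genes (16.7% higher and 16.0% lower). The offset of 50 units added to each channel draws the ratios of dim spots towards 0. With Agilent's own log ratio, which has no such offset, the 9 calls held, with probe 2 of Ncam1 added, at larger differences for the dim probes, with 1.51 for probe 2 of Chrna1, 0.78 for Chrnb1, 0.62 for probe 2 of Musk, -1.11 for probe 2 of Dok7 and 1.01 for probe 3 of Ncam1.

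**Figure D1:**
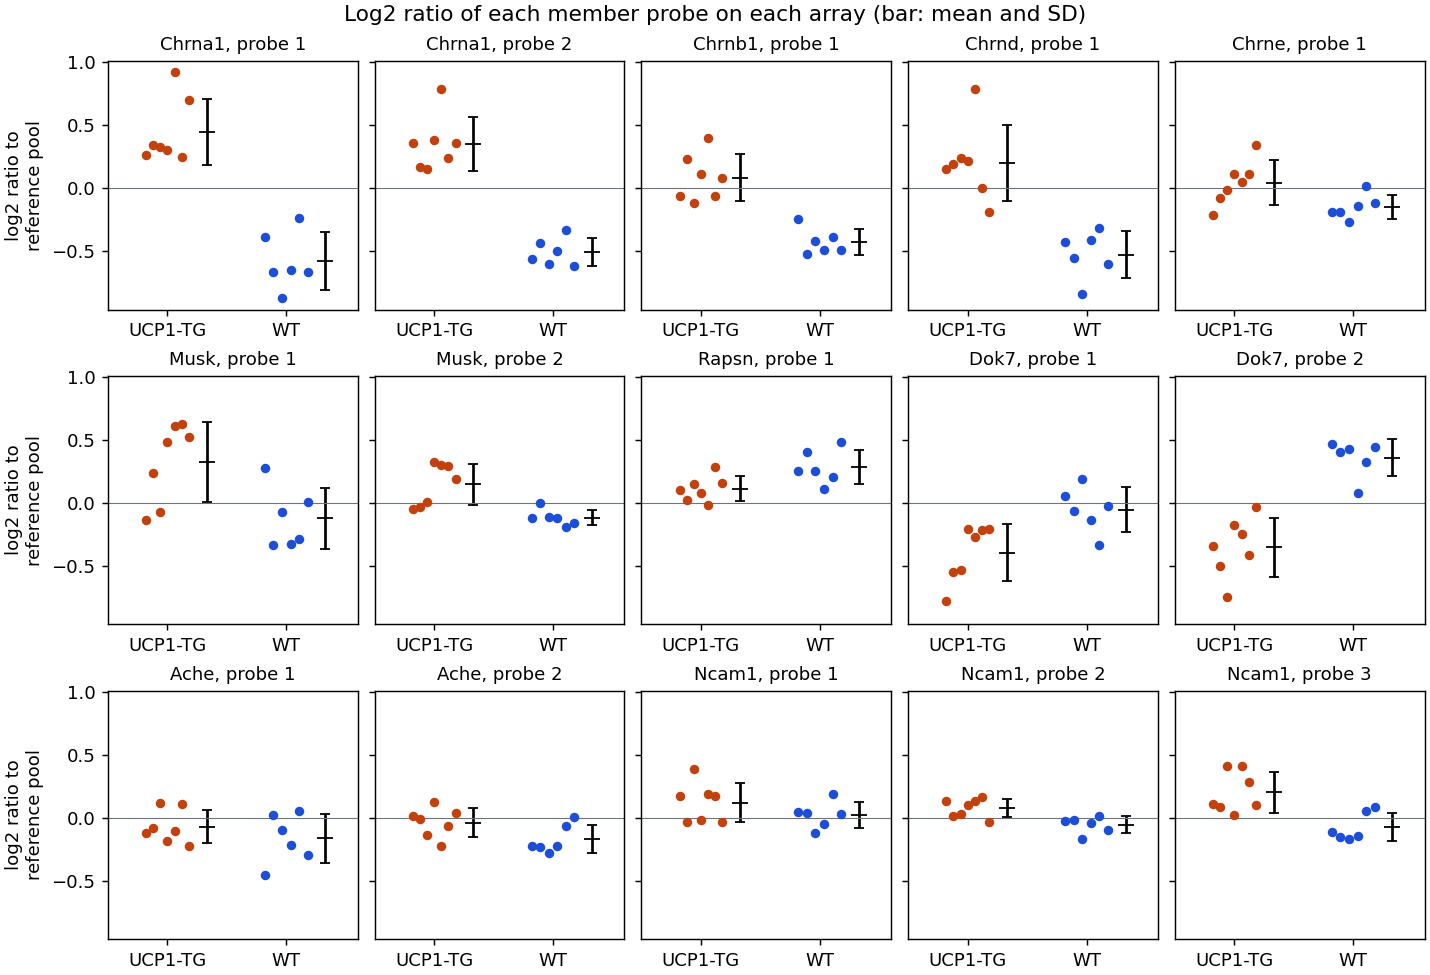
Log2 ratio to the reference pool (vertical axis) of the 15 kept junction probes on each array, with 7 UCP1-TG arrays left of 6 WT arrays in every panel; bars give the mean and SD. The groups stand apart in both Chrna1 probes, in Chrnb1 and in Chrnd with UCP1-TG above WT, and in probe 2 of Dok7 with UCP1-TG below WT.

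Chrna1 encodes the alpha subunit, which carries the acetylcholine binding face and enters each receptor in a pair. Probe 1 (chr2:73404112-73404171, minus strand, mm9) read 0.25, 0.33 and 0.92 as the lowest, median and highest log2 ratio in UCP1-TG muscle, against -0.87, -0.66 and -0.24 in WT muscle. Every UCP1-TG array was above the reference pool and every WT array below it. The difference was 1.03 ± 0.12 (SE, adjusted p = 1.2e-06), or 2.04-fold. Probe 2 (chr2:73401389-73401448) is a second oligonucleotide on the same transcript. It read 0.16, 0.36 and 0.79 in UCP1-TG muscle, against -0.62, -0.53 and -0.33 in WT muscle. Again the groups did not overlap, and the difference was 0.86 ± 0.09 (SE, adjusted p = 4.7e-07), or 1.81-fold. UCP1-TG mouse 5 was the highest of its group at both probes.

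Chrnb1 encodes the beta subunit, through which rapsyn is recruited to the receptor. Its probe (chr11:69598674-69599242, minus strand) read -0.12, 0.08 and 0.40 in UCP1-TG muscle, against -0.53, -0.45 and -0.24 in WT muscle. The lowest UCP1-TG array was above the highest WT array, by a narrower gap than at Chrna1. The difference was 0.51 ± 0.08 (SE, adjusted p = 7.5e-05), or 1.43-fold. Chrnd encodes the delta subunit, which forms one of the binding sites with alpha. Its probe (chr1:89096585-89096644, plus strand) read -0.19, 0.20 and 0.79 in UCP1-TG muscle, against -0.84, -0.49 and -0.32 in WT muscle. The spread of UCP1-TG mice was wide, between mouse 7 as the lowest and mouse 5 as the highest, yet no WT array reached mouse 7. The difference was 0.73 ± 0.12 (SE, adjusted p = 8.5e-05), or 1.66-fold.

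Within each of the 4 slides the alpha, beta and delta probes were higher in UCP1-TG muscle. For probe 1 of Chrna1 the within-slide differences were 0.69, 1.1, 1.26 and 0.93 on slides 1 to 4. For Chrnb1 they were 0.33, 0.36, 0.75 and 0.45. For Chrnd they were 0.60, 0.94, 0.91 and 0.37. Slides 1 and 3 had 1 WT array, slide 2 had 1 UCP1-TG array and slide 4 had 2 of each, so these are values without a test. The 3 genes stayed called in each of the 13 fits that left out 1 array, with differences of 0.95 to 1.09 for probe 1 of Chrna1, 0.46 to 0.55 for Chrnb1 and 0.63 to 0.79 for Chrnd. After the group means were subtracted, Chrna1 correlated over the 13 arrays with Chrnb1 at 0.66 and with Chrnd at 0.58, and Chrnb1 with Chrnd at 0.55 (Pearson's r, a description of arrays that share the reference pool).

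**Figure D2:**
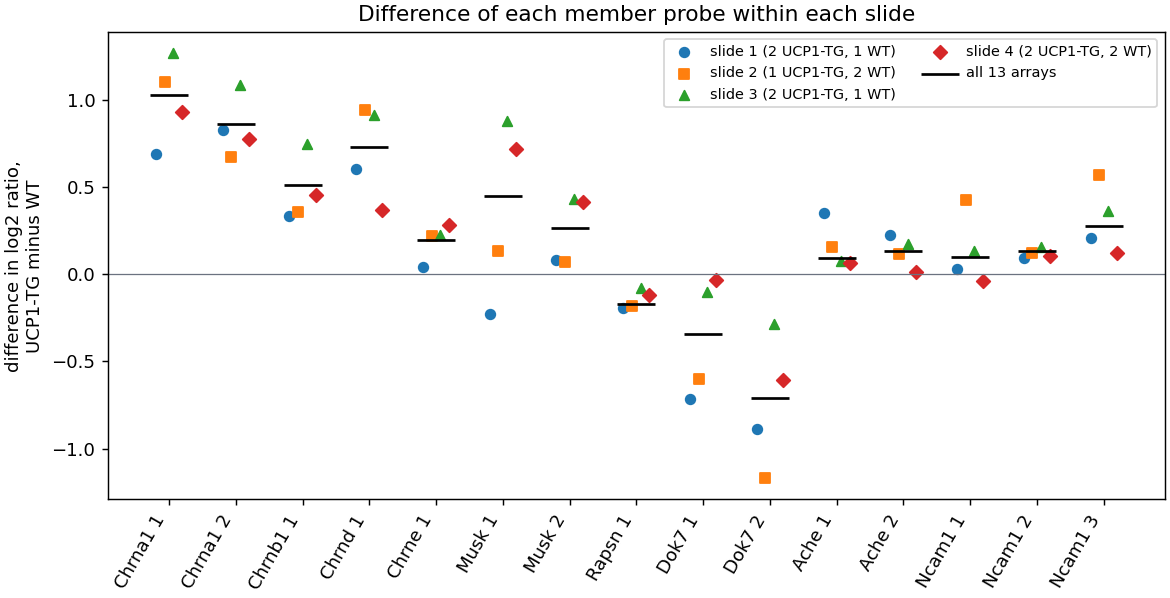
Difference in log2 ratio, UCP1-TG minus WT (vertical axis), of each kept junction probe within each of the 4 slides (symbols), with the difference over all 13 arrays as a bar; the number after a gene is the probe. The Chrna1, Chrnb1 and Chrnd symbols are all above 0 and the Rapsn and Dok7 symbols all below it, while probe 1 of Musk lies at -0.23 on slide 1 and at 0.88 on slide 3.

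Chrne, the adult epsilon subunit, read -0.21, 0.05 and 0.34 in UCP1-TG muscle, against -0.27, -0.17 and 0.02 in WT muscle. The groups overlapped, with UCP1-TG mice 1, 2 and 3 among the WT values. The difference was 0.19 ± 0.08 (SE), with a 95% interval of 0.03 to 0.36 and an adjusted p of 0.069, which did not pass the threshold. The interval is for this probe alone and is not adjusted. With slide as a fixed block the difference was 0.20 and the adjusted p = 0.023, and with slide as a random block they were 0.20 and 0.036. It also passed without the array labelled WT 5 (adjusted p = 0.046) or without UCP1-TG mouse 1 (0.024), and over the 13 fits that left out 1 array the adjusted p ran between 0.024 and 0.14.

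Chrng, the fetal gamma subunit, was at or near background. Its Cy5 signal was 35.1 to 61.5 units on the UCP1-TG arrays, against 38.5 to 49.4 units on the WT arrays, over a local background of 27 to 33 units. It was well above background on 1 of 7 UCP1-TG arrays, that of mouse 5 at 61.5 units, on 0 of 6 WT arrays and on 0 of 13 arrays in the reference channel. UCP1-TG mouse 4 gave 57.2 units without passing, and the other 5 UCP1-TG arrays were below the highest WT array. No fold is given, because both groups were at background on nearly all arrays, and a fit without the filter gave an adjusted p of 0.74. A change of Chrng below this signal was not detectable with this probe, which does not show its absence. Chrne on the same arrays gave 86.2 to 181.6 units in UCP1-TG muscle, against 80.3 to 120.6 units in WT muscle, and was well above background on all 13 arrays. Signals of different probes cannot be ranked as amounts of RNA, so the share of gamma and epsilon in the receptor was not measured.

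**Figure D3:**
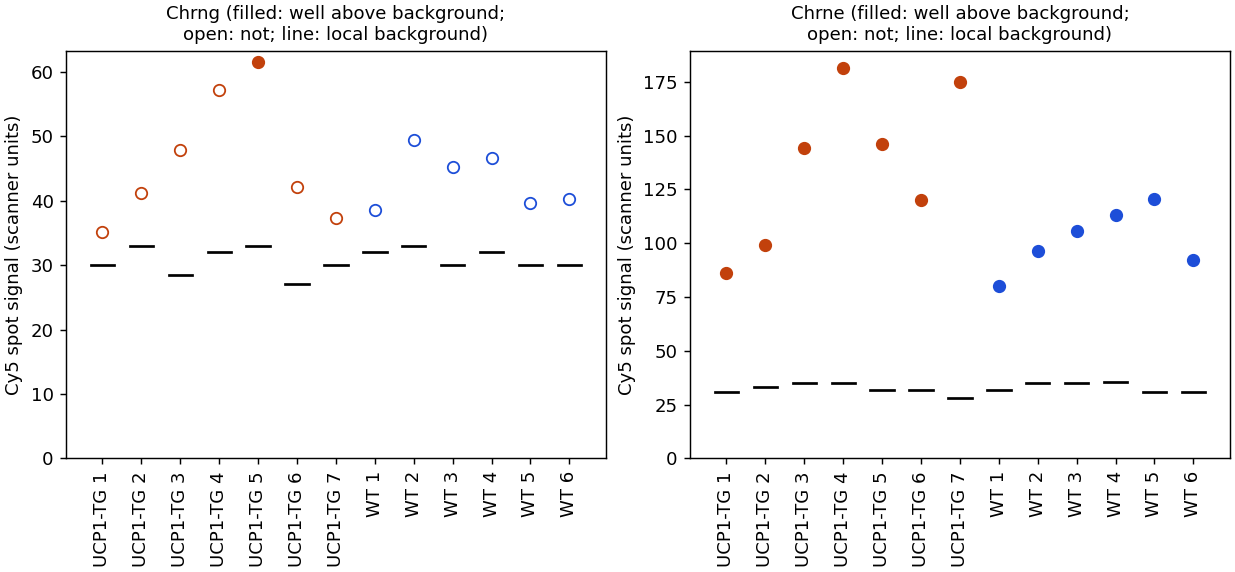
Cy5 spot signal in scanner units (vertical axes, from 0) of the Chrng probe (left) and the Chrne probe (right) on each array, UCP1-TG mice before WT mice, with the local background as a short line; filled symbols were well above background. Chrng is filled on the array of UCP1-TG mouse 5 alone, at 61.5 units, and Chrne is filled on all 13 arrays.

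Musk encodes the receptor tyrosine kinase that starts receptor clustering, and it was higher in UCP1-TG muscle at both probes, with groups that overlapped. Probe 1 (chr4:58387070-58387129, plus strand) read -0.14, 0.48 and 0.62 in UCP1-TG muscle, against -0.33, -0.18 and 0.28 in WT muscle. UCP1-TG mice 4 to 7 were above every WT array and mice 1 to 3 lay among them. The difference was 0.45 ± 0.13 (SE, adjusted p = 0.012), or 1.37-fold. Probe 2, whose location (chr4:58386538-58390272) contains that of probe 1, read -0.04, 0.19 and 0.33 in UCP1-TG muscle, against -0.19, -0.12 and -0.0038 in WT muscle. It was well above background on 4 of 6 WT arrays, and its difference was 0.26 ± 0.07 (SE, adjusted p = 0.0099), or 1.20-fold. The arrays of UCP1-TG mice 4 to 7 were those of slides 3 and 4. Within slides the differences of probe 1 were -0.23, 0.13, 0.88 and 0.72 on slides 1 to 4, so the direction did not hold on slide 1, where the single WT array read 0.28, the highest WT value. Those of probe 2 were 0.08, 0.07, 0.43 and 0.41. With slide as a fixed or a random block both probes stayed called. Probe 1 was called in 10 of 11 other settings and probe 2 in 9 of 10. Whether the difference itself varied between slides was not tested. With median centring in place of loess neither probe was called (adjusted p = 0.083 and 0.096).

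Dok7 encodes the cytoplasmic activator of MuSK, and it was lower in UCP1-TG muscle at both probes. Probe 2, on the RefSeq transcript (chr5:35430414-35430473, plus strand), read -0.75, -0.34 and -0.03 in UCP1-TG muscle, against 0.08, 0.42 and 0.47 in WT muscle. The groups did not overlap, and the array labelled WT 4 was the lowest WT array, with the next at 0.32. The difference was -0.71 ± 0.10 (SE, adjusted p = 1.4e-05), which is 1.64-fold lower, and without that array it was -0.77. Probe 1, on an Ensembl transcript (chr5:35423495-35423554), read -0.78, -0.27 and -0.20 in UCP1-TG muscle, against -0.33, -0.04 and 0.19 in WT muscle. Here 1 WT array lay among the UCP1-TG values, and the difference was -0.34 ± 0.10 (SE, adjusted p = 0.013), or 1.27-fold lower. With median centring in place of loess, probe 1 was at -0.11 and not called (adjusted p = 0.80). Within slides 1 to 4 probe 2 differed by -0.89, -1.17, -0.29 and -0.61 and probe 1 by -0.71, -0.60, -0.10 and -0.03. The smaller differences were thus on slides 3 and 4, where those of Musk were larger. After the group means were subtracted, Musk and Dok7 correlated at 0.81 over the 13 arrays, the highest of the 36 pairs of junction genes, although their group differences had opposite signs. Slide was not removed from that correlation.

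Rapsn encodes rapsyn, the scaffold that binds and clusters the receptor. Its probe (chr2:90885826-90885885, plus strand) read -0.02, 0.11 and 0.29 in UCP1-TG muscle, against 0.11, 0.26 and 0.48 in WT muscle. The groups overlapped over much of their range. The difference was -0.17 ± 0.07 (SE, 95% interval -0.32 to -0.02), with an adjusted p of 0.071 that missed the threshold. Within slides 1 to 4 it was -0.19, -0.18, -0.08 and -0.12. Without the array labelled WT 4 it was -0.21 (adjusted p = 0.036), and without UCP1-TG mouse 6 it was -0.20 (adjusted p = 0.036). With median centring of the ratios in place of loess the sign turned, to 0.14 (adjusted p = 0.68). That scaling moved the median of all kept probes by 0.13, and relative to that median Rapsn was at 0.01.

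Ache encodes the enzyme that hydrolyses acetylcholine in the cleft. Neither of its probes was called, with differences of 0.09 ± 0.09 (SE, 95% interval -0.09 to 0.28) at chr5:137733122-137733181 and 0.13 ± 0.07 (SE, 95% interval -0.02 to 0.28) at chr5:137735513-137735572. The adjusted p-values were 0.44 and 0.17. These intervals leave room for rises of up to 0.28 on the log2 scale and do not show equal levels.

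Ncam1 encodes the neural cell adhesion molecule, which spreads along the fibre surface after denervation and is also made by Schwann cells and axons. Probe 3 (chr9:49351182-49351241, minus strand) read 0.02, 0.11 and 0.41 in UCP1-TG muscle, against -0.17, -0.13 and 0.09 in WT muscle. It was well above background on 7 of 7 UCP1-TG arrays and on 2 of 6 WT arrays, and the groups overlapped slightly. The probe thus passed the filter through the UCP1-TG arrays, the group where it was higher, and most WT values were near background. The difference was 0.28 ± 0.08 (SE, adjusted p = 0.011), or 1.21-fold, and a fit without the filter gave an adjusted p of 0.015. The other probes were not called. Probe 1, the brightest, differed by 0.10 ± 0.08 (SE, adjusted p = 0.36) and probe 2 by 0.13 ± 0.06 (SE, adjusted p = 0.0999). The call of Ncam1 thus rested on 1 of its 3 probes, and with median centring in place of loess that probe was not called (adjusted p = 0.11).

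**Figure D4:**
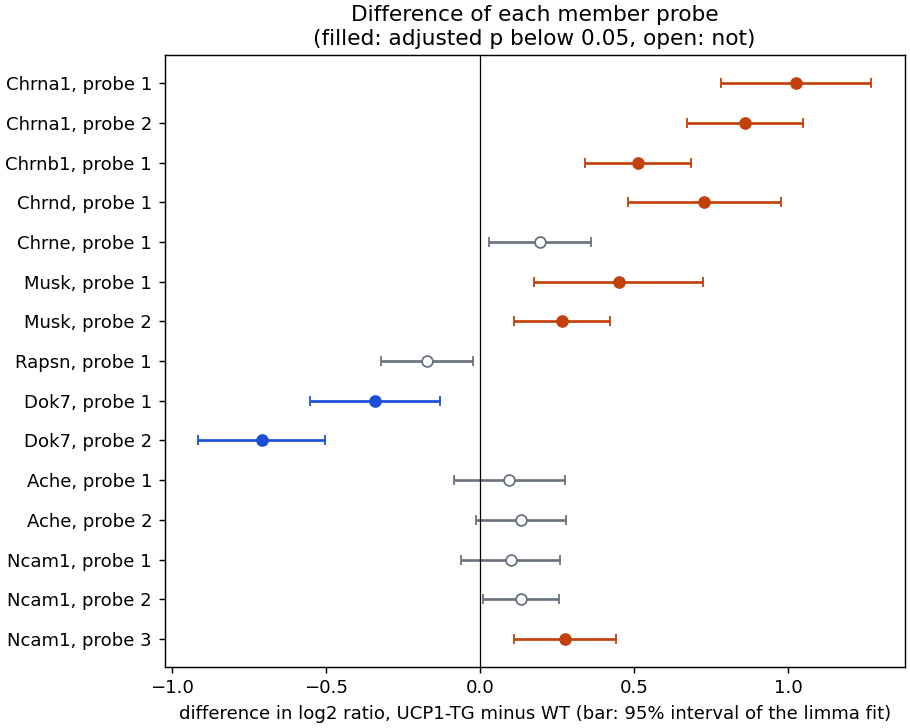
Difference in log2 ratio, UCP1-TG minus WT (horizontal axis), of the 15 kept junction probes with the 95% interval of the limma fit as a bar; filled points had an adjusted p below 0.05. The filled points are 7 above 0, with probe 1 of Chrna1 farthest out at 1.03, and the 2 Dok7 probes below 0.

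Muscle was measured whole, so that fewer cells of a type and less RNA per cell cannot be told apart. Some markers of cells that also reach the junction were higher in UCP1-TG muscle. Their correlation with the receptor genes was not computed. Of 12 Schwann cell markers 10 were kept, of which 7 were higher and 0 lower in UCP1-TG muscle, with a median difference of 0.27, where 16.7% of all genes were higher and 16.0% lower. Their mean log2 ratio was -0.03 to 0.25 on UCP1-TG arrays, against -0.42 to -0.04 on WT arrays, and Cdh19 and Gfap were not kept. Ngfr, the low-affinity neurotrophin receptor, was the one whose groups did not overlap, with a difference of 0.25 ± 0.06 (SE). Of 11 markers of motor axons and neurons 9 were not kept, among them the transmitter synthesis and transport genes Chat, Slc18a3 and Slc5a7 and the neurofilament genes. Of the other 2, Uchl1 was higher by 0.51 ± 0.10 (SE) and Snap25 differed by 0.05 ± 0.08 (SE). These genes are named with their values known, and the part of such cells in the receptor and Ncam1 results was not tested.

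White adipocyte markers were higher in 7 of 8 genes, against 16.7% of all genes, with a median difference of 0.86 and mean log2 ratios of -0.16 to 0.40 on UCP1-TG arrays, against -0.77 to 0.02 on WT arrays. Cfd, the complement factor adipsin, was the marker whose groups did not overlap, at 1.07 ± 0.12 (SE). Of 4 kept satellite cell markers 0 were higher and 2 lower, where 16.7% of all genes were higher and 16.0% lower. Their mean log2 ratios were -0.21 to -0.03 on UCP1-TG arrays, against 0.0019 to 0.16 on WT arrays. Chodl, 1 of the 2 lower, was the marker whose groups did not overlap, at -0.25 ± 0.06 (SE). It was dim, being well above background on 3 of 7 UCP1-TG arrays and 5 of 6 WT arrays. Among endothelial, fibroblast and macrophage markers, 0 of 5, 1 of 4 and 0 of 4 kept genes were higher and 1, 0 and 1 were lower, and of 4 natural killer and T cell markers 1 was kept and not called. The lower endothelial marker was Kdr, without overlap at its brightest probe (-0.27 ± 0.07, SE, adjusted p = 0.0073). Its other kept probe went the other way (0.29 ± 0.11, SE, adjusted p = 0.055). The lower macrophage marker, Csf1r, named with its values known, was at -0.25 at its brightest probe. Its other kept probes, at -0.05 and -0.07, were not called. The part of these cells was not tested either.

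Other genes of the postsynaptic membrane and cleft were read at their brightest kept probe. Of 26 such genes 21 were kept, of which 7 were higher, 2 lower and 12 not called, with a median difference of 0.09. Of all genes, 16.7% were higher and 16.0% lower. In 5 of the 21 the groups did not overlap, against 14.8% of all genes. Etv5, an ETS factor of the nuclei under the endplate, read 0.30, 0.39 and 0.72 in UCP1-TG muscle, against -0.63, -0.38 and -0.12 in WT muscle, a difference of 0.81 ± 0.09 (SE, adjusted p = 7.0e-07). Dtna, the dystrobrevin that steadies receptor clusters, read -0.18, 0.08 and 0.26 in UCP1-TG muscle, against -0.56, -0.48 and -0.38 in WT muscle, a difference of 0.53 ± 0.07 (SE, adjusted p = 8.5e-06). Gabpb1, a subunit of the N-box factor GABP, was higher by 0.19 ± 0.06 (SE, adjusted p = 0.031). The remaining higher genes were Syne1, Lamb2, Gabpa and Erbb2, named with their values known, at 0.16 to 0.42. Gabpa was at 0.30 ± 0.08 (SE, adjusted p = 0.0066) at this probe. Its dimmer kept probe, at 0.10 ± 0.09 (SE, adjusted p = 0.48), was not called. With median centring in place of loess, 2 genes of the list were called higher and 1 lower.

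The lower postsynaptic genes were Prima1, the membrane anchor of acetylcholinesterase, and Scn4a, the voltage-gated sodium channel of muscle. Prima1 differed by -0.55 ± 0.09 (SE, adjusted p = 0.00012) and was well above background on 3 of 7 UCP1-TG arrays, against 6 of 6 WT arrays. It thus passed the filter through the WT arrays, the group where it was higher, and the size of its difference is uncertain. Scn4a differed by -0.24 ± 0.07 (SE, adjusted p = 0.012). The agrin receptor Lrp4 at 0.14 ± 0.09 (SE), agrin itself (Agrn) at 0.03 ± 0.09 (SE) and the collagen tail of acetylcholinesterase (Colq) at -0.07 ± 0.07 (SE) were not called, with adjusted p-values of 0.25, 0.85 and 0.46. Nicotinic subunits of neurons gave 4 kept genes of 11, of which 0 were higher and 1 lower, where 16.7% of all genes were higher and 16.0% lower. The lower one was Chrna2, with a difference of -0.43 ± 0.08 (SE, adjusted p = 0.00018), a call that median centring ended.

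Genes outside the junction that respond to denervation were split in direction. Of 18 such genes 17 were kept, of which 5 were higher, 3 lower and 9 not called, with a median difference of 0.17 and 8 genes without overlap. Of all genes, 16.7% were higher, 16.0% lower and 14.8% without overlap. Because the list was chosen with earlier results of these data known, no weight can be put on an excess over these shares. Ankrd1, a stretch-responsive sarcomere protein, read 0.46, 0.76 and 1.54 in UCP1-TG muscle, against -2.90, -2.44 and -2.21 in WT muscle, a difference of 3.34 ± 0.14 (SE). Gadd45a, a growth arrest protein induced by denervation, differed by 2.65 ± 0.12 (SE), and Cdkn1a, an inhibitor of cyclin-dependent kinases, by 1.48 ± 0.17 (SE). Myog, the myogenic factor that binds E-boxes of receptor genes, read 0.40, 0.61 and 0.80 in UCP1-TG muscle, against -1.02, -0.82 and -0.42 in WT muscle, a difference of 1.39 ± 0.09 (SE, adjusted p = 7.4e-10). Runx1, a transcription factor induced on loss of the nerve, was higher by 0.43 ± 0.08 (SE, adjusted p = 0.00024). Without the array labelled WT 1, 8 genes of the list were called higher.

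The lower genes of that list were the ubiquitin ligase Fbxo32 at -0.78 ± 0.12 (SE, adjusted p = 3.3e-05), the perinatal myosin Myh8 at -0.74 ± 0.09 (SE, adjusted p = 3.8e-06) and Hdac4 at -0.67 ± 0.08 (SE, adjusted p = 1.5e-06), a deacetylase that relays denervation to Myog in mouse muscle. With median centring in place of loess 0 genes of the list were called lower. Trim63, the other classical ubiquitin ligase of atrophy, differed by -0.12 ± 0.16 (SE) and the embryonic myosin Myh3 by 0.06 ± 0.18 (SE). Both were named with their values known and were not called, with adjusted p-values of 0.61 and 0.83. Myosin genes are close copies of each other, and the specificity of their probes was not examined. The Myh8 probe read here averaged 276107 Cy5 units in WT muscle, and the Myh4 probe, which also differed by -0.74, averaged 180581 units. A dimmer kept Myh8 probe, at 6700 units in WT muscle, differed by -0.51 ± 0.17 (SE, adjusted p = 0.030). The remaining Myh8 probes did not pass the filter, so the lower Myh8 call may not be of the perinatal myosin itself.

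**Figure D5:**
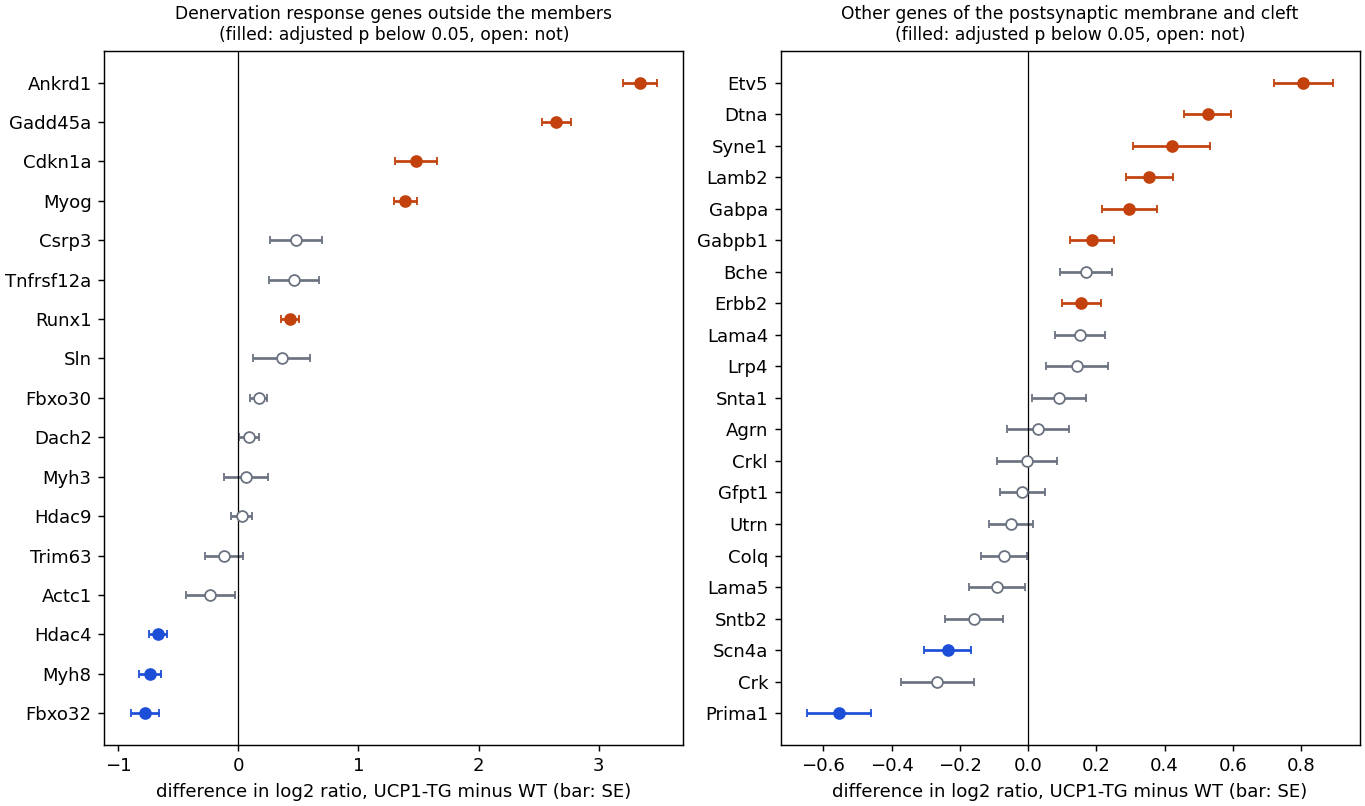
Difference in log2 ratio, UCP1-TG minus WT (horizontal axes), with SE, of denervation response genes outside the junction (left) and of other postsynaptic and cleft genes (right), each at its brightest kept probe; filled points had an adjusted p below 0.05. The left panel has 5 filled points above 0 and 3 below it, and the right panel 7 above 0 and 2 below it.

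Of 10 regulators that bind E-boxes or their partners, 9 were kept, with 3 higher, 1 lower and a median difference of 0.01. These 4 calls of 9 are a share near the 32.7% of all genes. Myog, counted here too, was the one without overlap. Tcf12 at 0.28 ± 0.09 (SE) and Tcf3 at 0.19 ± 0.07 (SE), the partners of myogenic factors, were the other higher genes, and Myod1 at -0.22 ± 0.07 (SE) was the lower one, all 3 named with their values known. Median centring left 1 of these regulators higher and 0 lower, and the number lower ran from 0 to 3 over the fits that left out 1 array. The genes whose log2 ratios followed those of Chrna1 most closely over the 13 arrays, after the group means were subtracted, were Cby1 at a Pearson's r of 0.90, the design's unannotated transcript NAP058261-1 at 0.85 and Exoc1 at 0.84, out of 17278 genes. Their group differences were -0.17, -0.03 and 0.0016, of which that of Cby1 was called (adjusted p = 0.044). Slide was not removed from these correlations. They are the highest among 17278 genes over 13 arrays, and their size was not tested.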

How the data were processed

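Per the file headers, the deposited scanner files hold the Cy5 and Cy3 spot and background intensity of each array, other values that flag spots, and the log10 ratio of processed signals, with Agilent Feature Extraction 10.5.1.1 as the scanner software, as in the submitters' processing notes. The authors' deposited value table was read as log2 Cy5 signal, since its columns correlated with that signal at 0.996 to 0.999 and shared a median of 7.58. How it was corrected and normalized is not given in the sources used here. Coordinates are mm9, per the file headers, and genes are named as on the array design. No exon or UTR annotation of that build was used. All per-sample columns were mapped (0 left out).

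Mean signals were corrected with normexp (offset 50) and log2 Cy5 over Cy3 was normalized by loess within each array in limma 3.58.1 under R 4.3.3. Of 62976 spots, 3671 were controls, which were left out together with outlier spots (553 to 673 per array, controls included). No spot was saturated. Every kept probe was fitted with lmFit and eBayes on all 13 arrays without a covariate, two-sided, with Benjamini-Hochberg adjustment over 22740 probes. Gene lists were read from that fit at each gene's brightest kept probe. The fit was also run on simulated ratios with independent noise, few changed probes and no slide effect. That run cannot speak to slide effects, labels or the large share of calls in these arrays.

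Intervals have a level of 95% and are for the mean difference between the groups, with an SE that rests on the spread between mice. The number of arrays limits their precision. The text names all 10 junction genes with every probe, up to 6 called genes without overlap per list by largest difference, and Lrp4, Agrn, Colq, Myog, Runx1, Hdac4 and Ucp1, and, for Chrna1, its 3 closest genes; others are said to be named with their values known. Members and lists were chosen with earlier results of these data known. The groups share replicate numbers 1 to 6, but the residuals of same-numbered mice correlated at -0.23 to 0.22, so the numbers were not used to pair mice. Alternatives covered background correction, normalization, the filter, the channel, the value table, slide, replicate number and each array left out. 1 gene of the denervation list and 1 probe sequence are not reported here.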

Additional observations from a re-analysis of the deposited data

Results flagged for a closer look

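In 3 of 34 groups tested, the farthest array stood apart from the rest of its group; by chance about 1 in 20 groups would. At probe 2 of Chrna1, UCP1-TG mouse 5 read a log2 ratio of 0.79, with the next UCP1-TG mouse at 0.38. The same mouse was also the highest UCP1-TG mouse at Chrnb1, Chrnd and probe 1 of Chrna1, and its array was the one on which Chrng was well above background. Without it the differences of the Chrna1 probes were 0.95 and 0.78, and that of Chrnd was 0.63, all still called. At probe 2 of Dok7, the array labelled WT 4 read 0.078, with the next WT array at 0.32. At Ucp1 that array read 0.45, with the next WT array at -2.82.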

How the results depend on the processing

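Both Chrna1 probes, Chrnb1, Chrnd and probe 2 of Dok7 kept their direction and call under all 11 other settings run on probes and in all 13 fits that left out 1 array. Over the settings, their differences were 0.98 to 1.25 and 0.83 to 1.51 (Chrna1), 0.47 to 0.78 (Chrnb1), 0.67 to 0.94 (Chrnd) and -1.11 to -0.53 (Dok7). Median centring without loess ended the most calls: it shifted the median of all kept probes by 0.13, called 1653 probes, 76.8% of them higher, against 50.2% of the 7225 calls with loess, and left 4 junction probes higher and 1 lower. Relative to the shifted median, Chrna1 stood at 1.13 and 0.80, Chrnb1 at 0.52, Chrnd at 0.74 and probe 2 of Dok7 at -0.66. It ended the calls of Musk (0.65 and 0.29), probe 1 of Dok7 (-0.11) and probe 3 of Ncam1 (0.28), with adjusted p-values of 0.083, 0.096, 0.80 and 0.11, and turned Rapsn to 0.14. At the brightest probe it left 0 junction genes lower. It called 2 postsynaptic genes higher and 1 lower, 0 neuronal subunits lower, 0 denervation genes lower, and 1 E-box regulator higher and 0 lower. Probe 2 of Ncam1 passed with Agilent's own ratio (0.42, adjusted p = 0.019) and with an offset of 10 (0.21, 0.044). With a signal asked for on all 13 arrays, which Prima1 lacks, 1 postsynaptic gene was lower. The lower E-box regulators numbered 0 in the Cy5 channel alone and 2 with slide as a fixed or a random block. Within slides, Musk probe 1 was at -0.23 on slide 1, Ncam1 probe 1 at -0.037 on slide 4, and Ucp1 at 4.12, 3.87, -0.13 and 3.73, with the array labelled WT 4 as the WT array of slide 3. The cause of these changes was not tested.

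Over the fits that left out 1 array, junction probes gave 7 to 8 higher and 2 to 3 lower calls, and junction genes at their brightest probe 4 to 5 higher and 1 to 2 lower, with 2 without the array labelled WT 4 or without UCP1-TG mouse 6, where Rapsn passed. Ucp1 ran from 2.97 to 3.91. Denervation genes higher were 5 to 8, with 8 without WT 1, and lower 3 in every such fit. E-box regulators higher were 2 to 3 and lower 0 to 3, with 0 without WT 5 or WT 6, 3 without WT 2 and 2 without UCP1-TG mouse 4, 5, 6 or 7. Postsynaptic genes were 5 to 7 higher and 2 to 3 lower. With the replicate number as a block, junction probes were again 7 higher and 2 lower, Chrna1 probe 1 differed by 0.98, Ucp1 by 3.31, and no junction call changed; of 6 numbers, number 4 alone had its own number as its closest partner. Taking a gene's mean or brightest probe gives no value for counts of probes.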
